A study of Homo sapiens with 10 samples.

Results

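The human miRNAs from miR-548 to miR-663 form a block of late-named, mostly primate-specific miRNAs, and the miRNA PCR panels of this study hold 111 assays for them out of 745. Assays were chosen by name alone: names had to run from miR-548 to miR-653 or from miR-657 to miR-663, and passenger strands marked with a star were left out. The material came from 2 established human tumour cell lines, HepG2 from liver and PC-3 from prostate. A nucleic acid probe against a chosen mRNA was transfected for 24 hours, mRNA bound by the probe was purified on streptavidin beads, and the miRNAs in the isolated RNA were measured. In HepG2 a control probe, a probe against p21 mRNA and a probe against STAT3 mRNA were used, and in PC-3 a control probe and the p21 probe. Each of the 5 purifications was run on 2 panels (10 samples) with different assays, 39 of the 111 on panel 1 and 72 on panel 2.

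Most miRNAs with these numbers were found by sequencing or prediction in human cells, often lack a counterpart in rodents, and are scarce in most tissues. A miRNA guides an Argonaute protein to messenger RNAs mainly through its seed, bases 2 to 8 from the 5′ end, and the target is then repressed. p21 (CDKN1A) is an inhibitor of cyclin-dependent kinases that is induced by p53, and STAT3 is a transcription factor activated by cytokines. The block includes the miR-548 family, which arose from a primate-spread DNA transposon, and very GC-rich miRNAs such as miR-638.

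The sequences of the most GC-rich miRNAs show what sets them apart in base composition. RefSeq mature sequences (GRCh38.p14) matched 67 of the 111 assays by exact name. A further 23 assay names gave no arm where RefSeq names one, and 21 names had no matching entry, miR-663 and miR-612 among them. Of the 67, the 6 with a GC share of at least 70% follow 5′ to 3′, with the seed in capitals.
miR-638: aGGGAUCGcgggcggguggcggccu
miR-663b: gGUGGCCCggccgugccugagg
miR-572: gUCCGCUCggcgguggccca
miR-602: gACACGGGcgacagcugcggccc
miR-615-5p: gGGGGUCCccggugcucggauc
miR-611: gCGAGGACcccucggggucugac

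Among the 67 matched, miR-663b had the highest GC share, 81.8% of 22 bases. It was followed by miR-638 and miR-572 at 80%, miR-602 at 78.3%, miR-615-5p at 77.3% and miR-611 at 73.9%. GC shares of miR-663 and the other unmatched assays were not determined, so they are not ranked. The next below the limit was miR-564 at 68.4%. miR-638 lies at chr19:10718419-10718443 on the plus strand, within the span of DNM2, the gene of a dynamin. miR-663b lies at chr2:132256970-132256991 on the minus strand within ANKRD30BL, and miR-615-5p at chr12:54033967-54033988 on the plus strand within HOXC4 and HOXC5. Only gene spans were used, so exon or intron is not stated. The letters GGG, searched in the miRNA strand with overlaps allowed, occur at 3 positions in miR-638 and 3 in miR-615-5p, 2 in miR-611 and 1 in miR-602, and not in miR-663b or miR-572. They occur in 33.2% of 2370 human mature miRNAs in RefSeq and in 23.9% of the 67. No 2 of the 67 share a seed.

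Cq is the PCR cycle at which the signal crosses threshold; 1 cycle less is taken as 2-fold more RNA. An assay counted as detected at a Cq of at most 35. All conditions had 1 purification, so differences lack replicates and were not tested. The error known is technical. Wells of the same reference assay on panel 1 and panel 2, from 22 pairs, put the SD of 1 Cq at 0.634 cycles, shifts between the panels included. From 11 pairs, some of which share the HepG2 control, a difference of purifications had an SD of 0.724. The median Cq of those wells was 29.46, well below the Cq of nearly all assays described here, and precision close to Cq 35 was not measured. None of the 45 readings of water wells gave a Cq. The hepatocyte miRNA miR-122 gave no Cq in any purification, and of 4 other liver-enriched miRNAs (miR-192, miR-194, miR-215 and miR-148a) all 4 were detected with the STAT3 probe and 0 elsewhere. Of miR-221, miR-222 and miR-31, listed as markers of PC-3, 2, 3 and 3 were detected in HepG2 with the control, p21 and STAT3 probes, but 0 and 2 in PC-3 with the control and p21 probes. Their counts were thus higher in HepG2 than in PC-3, and with the p21 probe miR-31 was at 30.38 in HepG2 and 38.47 in PC-3. All of these markers are on panel 1. Of all its assays, 28.8%, 34.1% and 37.1% were detected in HepG2 with the control, p21 and STAT3 probes. In PC-3 it was 2.13% and 10.1% with the control and p21 probes, so higher counts in HepG2 held for the whole panel.

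These miRNAs were scarce in every purification, and in HepG2 they were detected less often than the panels as a whole. In HepG2, 8 of 111 (7.21%) were detected with the control probe against 16.8% of all 745 assays, 17 (15.3%) with the p21 probe against 28.3%, and 30 (27%) with the STAT3 probe against 34.4%. In PC-3, 3 (2.7%) were detected with the control probe against 2.15%, and 7 (6.31%) with the p21 probe against 7.11%, so the PC-3 shares lay near the background. The median Cq of those detected lay between 34.18 and 34.57 in the 5 purifications. For all detected assays it was 33.27, 32.99 and 33.70 in HepG2 with the control, p21 and STAT3 probes. In PC-3 it was 34.18 and 33.92 with the control and p21 probes, close to the block's 34.57 and 34.18. Such medians cannot exceed the limit of 35. The lowest Cq of the whole block was 31.34. How much RNA went into each purification is not stated, so more input and better recovery cannot be told apart.

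Panel composition bears on these shares. On panel 1, 12.8%, 15.4% and 25.6% of the 39 assays were detected with the HepG2 control, p21 and STAT3 probes, where all panel 1 assays gave 28.8%, 34.1% and 37.1%. On panel 2 the 72 assays gave 4.17%, 15.3% and 27.8%, beside 4.59%, 22.4% and 31.6% of all panel 2 assays. In PC-3, panel 1 gave 5.13% with the control probe (2.13% of all its assays) and 7.69% with the p21 probe (10.1%), and panel 2 gave 1.39% (2.16%) and 5.56% (4.05%). The shortfall in HepG2 was thus widest on panel 1 and small on panel 2 with the control and STAT3 probes.

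**Figure D1:**
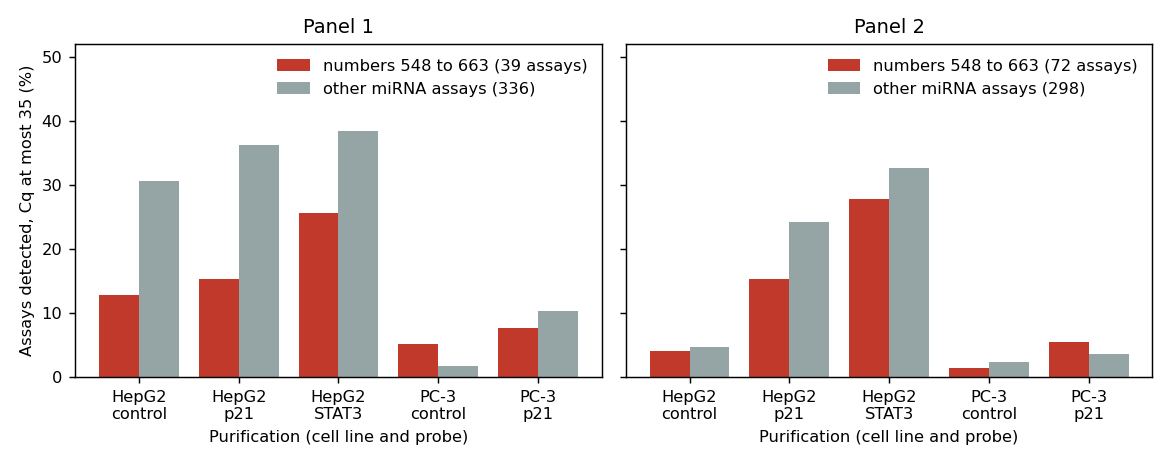
Share of assays detected (Cq at most 35, in %) on panel 1 and panel 2 in each purification, for the miRNAs from miR-548 to miR-663 (red) and the other miRNA assays of the panel (grey); there is 1 purification per bar. With the HepG2 control probe on panel 1 the shares are 12.8% and 30.7%, while on panel 2 they are 4.17% and 4.7%.

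Of the 111, 39 (35.1%) were detected in at least 1 purification, against 44.2% of all assays. There were 22 detected in 1 purification, 12 in 2, 2 in 3 (miR-574-3p and miR-589), 2 in 4 (miR-638 and miR-605) and 1 in all 5 (miR-663). The remaining 72 were never detected: 43 of these gave a Cq above the limit in some purification and 29 gave none anywhere. Just inside the limit stood miR-567 at 34.987 with the STAT3 probe, and just outside it miR-605 at 35.003 in PC-3 with the p21 probe.

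Only 8 of the 111 (7.21%) were detected in both cell lines, the same order as the 7.11% of all assays: miR-663, miR-638, miR-612, miR-605, miR-595, miR-632, miR-589 and miR-571. In PC-3, 9 were detected (8.11%, against 7.92%), and miR-662 was the only one of them not detected in HepG2. In HepG2, 38 were detected (34.2%, against 43.4%), 30 of them in HepG2 alone. Of all 745 assays, 323 were detected in HepG2, 59 in PC-3 and 53 in both. The excess in HepG2 was thus general and not a trait of this block. With the p21 probe in both lines, 4 of the 111 were detected (3.6%, against 6.04% of all assays), namely miR-663, miR-638, miR-612 and miR-632.

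miR-663, since renamed miR-663a and reported to respond to resveratrol and to target JunB, JunD and p21, stood out as the most widely recovered. Its Cq was 33.19 with the control, 32.51 with the p21 and 32.40 with the STAT3 probe in HepG2, and 34.68 with the control and 32.42 with the p21 probe in PC-3. The target probes therefore gave nearly the same Cq in both lines, and the PC-3 control was the lowest in amount. Counted from the lowest Cq, it was 14th of 53 detected assays in the PC-3 p21 purification but 88th of 211 in the HepG2 p21 purification. It was 1 of 9 assays detected in all 5 purifications (1.21% of the panels).

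The GC-rich miR-638, studied as a growth regulator in several tumour types, was the other strong signal in both lines. It was read at 33.96, 32.20 and 32.40 in HepG2 with the control, p21 and STAT3 probes, and at 35.29 and 33.54 in PC-3 with the control and p21 probes. In both lines the control probe gave the highest Cq, and the PC-3 control alone missed the limit. It ranked 20th of 53 detected assays in PC-3 with the p21 probe, and 69th of 211 and 57th of 256 in HepG2 with the p21 and STAT3 probes.

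The paralogue-named miR-663b behaved differently from miR-663 across the lines. It was at 38.54, 32.60 and 33.07 in HepG2 with the control, p21 and STAT3 probes, and at 36.34 and 36.39 in PC-3 with the control and p21 probes. Both HepG2 target probes lay far below the remaining purifications in Cq, and the PC-3 probes did not separate.

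miR-612, reported to restrain invasion of liver cancer cells, was recovered with the p21 probe in both lines. In HepG2 it was at 39.74 with the control, 31.50 with the p21 and 35.43 with the STAT3 probe, and in PC-3 at 37.51 with the control and 33.71 with the p21 probe. Both p21 purifications passed the limit and the remaining 3 did not. As read, p21 and control were 8.24 cycles apart in HepG2 and 3.80 in PC-3, but Cq values above 35 rest on very little template.

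miR-605, reported to raise p53 by repressing MDM2, gave nearly the same Cq everywhere. The values were 34.33, 34.30 and 34.55 in HepG2 with the control, p21 and STAT3 probes, and 34.57 and 35.003 in PC-3 with the control and p21 probes. Its range of 0.70 cycles was the smallest among 62 assays with a Cq in all 5 purifications, whose median range was 4.13; it was singled out after its values were seen. The spike-in control UniSp6 itself ranged over 1.56 cycles on panel 1 and 1.98 on panel 2.

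**Figure D2:**
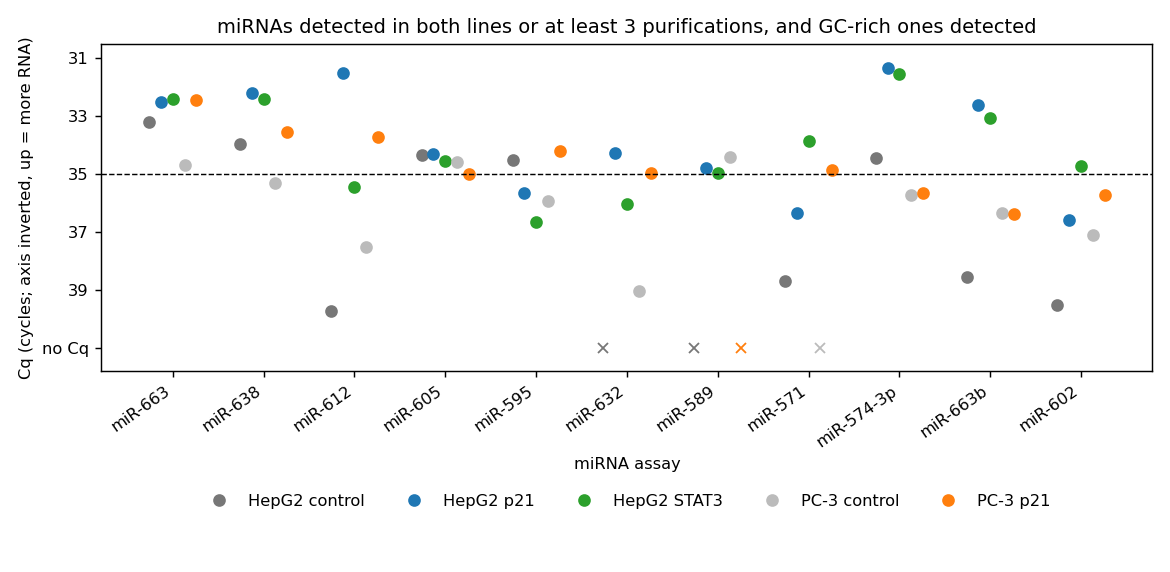
Cq (cycles, inverted axis) of 11 miRNAs in each of the 5 purifications, 1 point per purification; crosses mark wells with no Cq and the dashed line is the limit of 35. miR-605 stays between 34.30 and 35.003, whereas miR-612 runs from 31.50 to 39.74.

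The 4 further miRNAs seen in both lines sat near the limit. miR-632 was at 34.27 and 36.04 with the HepG2 p21 and STAT3 probes and at 39.04 and 34.96 with the PC-3 control and p21 probes, with no Cq for the HepG2 control. miR-571 was at 38.69, 36.33 and 33.86 in HepG2 with the control, p21 and STAT3 probes and at 34.85 in PC-3 with the p21 probe. miR-595 was at 34.52, 35.66 and 36.66 in HepG2, highest in amount with the control probe, and at 35.92 and 34.18 in PC-3 with the control and p21 probes. miR-589 was at 34.80 and 34.94 with the HepG2 p21 and STAT3 probes and at 34.40 with the PC-3 control probe, with no Cq in the remaining purifications. These 4 did not follow a shared order of probes.

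Among the 67 with a sequence, all 6 with a GC share of at least 70% gave a Cq of some size in PC-3, against 8 of 24 with 50% to under 70% and 8 of 37 with under 50%. A Cq in any of the 5 purifications was seen for 6 of 6, 20 of 24 and 28 of 37. Of all 745 assays, 119 had a Cq of some size with the PC-3 control probe and 207 with the PC-3 p21 probe. In HepG2 it was 293, 416 and 561 with the control, p21 and STAT3 probes. How many of all assays had a Cq in either PC-3 purification, or in any of the 5, is not given. The class counts therefore have no matching background. Such Cq values above 35 rest on very little template. At the limit of 35 the count was 1 of 6 (miR-638) in PC-3 and 3 of 6 (miR-638, miR-663b and miR-602) in HepG2. The class of 50% to under 70% gave 2 of 24 in PC-3 and 5 of 24 in HepG2, and the class under 50% gave 0 of 37 and 11 of 37, where 7.92% of all assays were detected in PC-3 and 43.4% in HepG2. Because 67 of 111 is 60.4%, under the 80% needed, a check of GC share over the whole block is void. These counts describe the matched miRNAs only, and miR-663 and miR-612 are in none of the GC classes.

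Among the remaining GC-rich miRNAs, miR-602 was detected with the STAT3 probe only. It was at 39.53, 36.59 and 34.70 in HepG2 with the control, p21 and STAT3 probes and at 37.09 and 35.71 in PC-3 with the control and p21 probes. miR-572, a reported repressor of p21, stayed above the limit, at 37.90 and 35.63 in HepG2 with the p21 and STAT3 probes and at 38.82 and 38.61 in PC-3 with the control and p21 probes. miR-615-5p was at 39.03 and 36.32 in HepG2 with the p21 and STAT3 probes and at 38.30 in PC-3 with the p21 probe. miR-611 gave a single Cq, 38.05 with the PC-3 control probe. Of the 6, 3 never passed the limit.

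**Figure D3:**
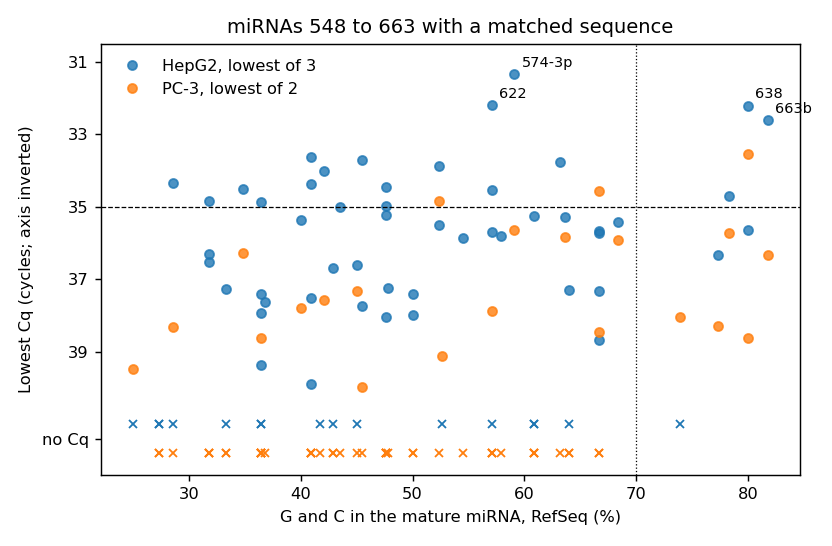
Lowest Cq (cycles, inverted axis) in HepG2 (blue, 3 purifications) and PC-3 (orange, 2 purifications) against the GC share of the mature miRNA in %, for the 67 miRNAs with a matched sequence; crosses mark no Cq, the dashed line is Cq 35 and the dotted line a GC share of 70%. All 6 miRNAs to the right of the dotted line have a Cq in PC-3, but 1 of them passes the limit there.

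Every miRNA with a Cq in all 5 purifications was examined for how far it moved. There were 12 such miRNAs (10.8% of 111), with a median range of 3.12 cycles beside 4.13 for all 62 assays of that kind. Of the 12, miR-564, at 68.4% GC, was next to miR-605 in steadiness, at 35.79, 35.43 and 35.96 in HepG2 with the control, p21 and STAT3 probes and 35.91 and 36.68 in PC-3 with the control and p21 probes. It never passed the limit, yet it was within 1.25 cycles throughout. At the other end stood miR-612 (8.24 cycles), miR-663b (5.95) and miR-602 (4.83). The 8 of these 12 with a matched sequence had a median GC share of 67.5%, beside 47.6% for the 67.

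**Figure D4:**
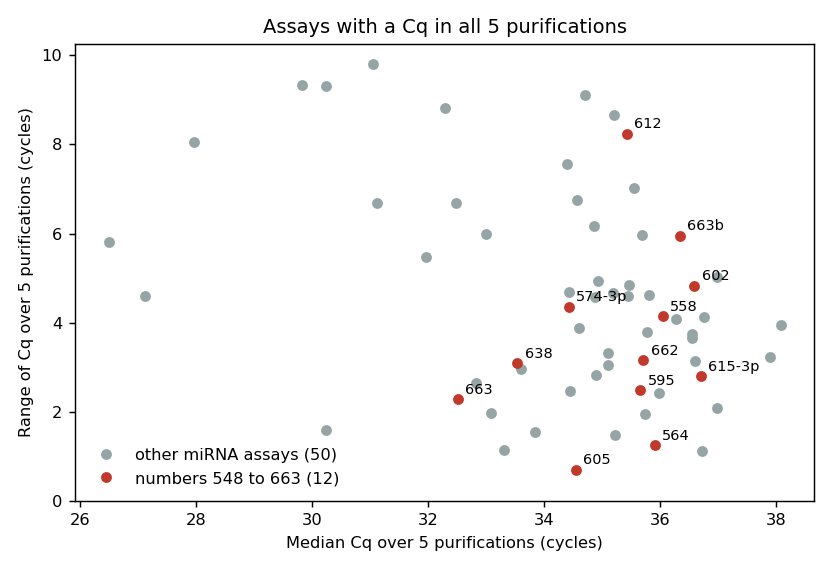
Range of Cq over the 5 purifications against the median Cq (both in cycles) for the 62 miRNA assays with a Cq in all 5, with the 12 miRNAs from miR-548 to miR-663 in red. miR-605 has the smallest range, 0.70 cycles, and miR-612 the widest of the red points, 8.24.

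In HepG2 the p21 probe brought 13 of these miRNAs under the limit that were above it with the control (11.7%, against 14.5% of all assays), and lost 4 (3.6%, against 2.95%). For values measured with both probes, the difference in Cq was centred on the median of all such assays of the panel, which favoured the p21 probe by 1.30 (panel 1) and 1.06 (panel 2) cycles. Detected with both were 4: miR-574-3p was 1.79 log2 units higher (3.45-fold), miR-638 0.70 higher, miR-663 at -0.63 and miR-605 at -1.04. Thus 1 of 4 passed 2-fold upwards and 1 of 4 downwards, where 37.9% and 36.9% of 103 assays were, and the median was 0.04 beside 0.00. Before centring miR-605 differed by 0.03 cycles, so its centred value is the panel's own movement with the sign turned.

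miR-574-3p, which also occurs in mouse, held the lowest Cq of the block. It was at 34.43 with the control, 31.34 with the p21 and 31.54 with the STAT3 probe in HepG2, and at 35.70 and 35.64 with the control and p21 probes in PC-3. In HepG2 both target probes gave a lower Cq than the control, and in PC-3 the p21 and control probes did not separate and both lay outside the limit. Its mature sequence, with the seed in capitals, has a GC share of 59.1% and no GGG:
miR-574-3p: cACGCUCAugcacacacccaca

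It lies at chr4:38868092-38868113 on the plus strand within the span of FAM114A1, and TLR6 also spans the site. Its p21 shift turned to -0.63 when centred on reference assays, and that of miR-638 to -0.95. For miR-663 the p21 shift turned to 0.67 without centring.

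Among those detected with the p21 probe but not the control probe in HepG2, 3 of 13 exceeded 2-fold when the control was set to the limit and centred. Bounds were computed for this block only, so whether that count is unusual among all assays is not known. The bound was 5.42-fold for miR-612, 2.94-fold for miR-636 and 2.53-fold for miR-663b. Centred on reference assays, the bound of miR-612 was 1.72-fold and those of miR-636 and miR-663b fell below 1-fold. miR-636 was at 32.38 (p21) and 35.50 (STAT3), with no Cq in the remaining 3 purifications. The other 10 (miR-584, miR-589, miR-582-5p, miR-629, miR-643, miR-632, miR-582-3p, miR-649, miR-577 and miR-593) had a Cq from 34.27 to 34.91, and bounds under 2-fold. Lost with the p21 probe were miR-551b, miR-595, miR-628-3p and miR-558, at 34.41, 34.52, 34.97 and 34.85 with the control. Their centred bounds were 1.89, 1.78, 1.33 and 1.21 log2 units lower with p21. The first 3 bounds turned negative when centred on the spike-in UniSp3, and then show no difference. With both target probes but not the control, 7 of the 111 were detected (6.31%, against 8.86% of all assays).

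The STAT3 probe recovered more of these miRNAs than any other, most of them close to the limit. There were 24 detected with the STAT3 and not the control probe (21.6%, against 20.9% of all assays) and 2 the other way (1.8%, against 3.36%), so both shares lay near or below the background. Of 6 detected with both, miR-574-3p was 2.40 log2 units higher (5.26-fold), miR-638 0.43 and miR-663 0.29 higher, miR-558 at -0.28, miR-551b at -0.53 and miR-605 at -1.35. On reference assays miR-574-3p was at 0.78, under 2-fold, and miR-638 and miR-663 turned to -0.37 and -1.32. That is 1 higher and 1 lower by 2-fold, where 29% and 25% of 100 assays were, with a median of 0.00 beside 0.00. The p21 and STAT3 comparisons share the HepG2 control purification. miR-551b, reported to activate STAT3 transcription, was at 34.41 with the control and 34.45 with the STAT3 probe and gave no Cq elsewhere.

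The STAT3 probe was also the only source of 16 miRNAs (14.4%, against 11.7% of all assays). miR-622 led them at 32.18, with 37.63 for the p21 probe and no Cq in the remaining purifications; with the control set to the limit its bound was 5.03-fold, or 1.64-fold on reference assays. miR-646 (33.76) and miR-566 (33.90) followed, and the other 13 were between 34.45 (miR-610) and 34.99 (miR-567). miR-639, also reported to repress p21, was among them at 34.80, with 37.87 for the control probe and no Cq for the p21 probe.

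Set side by side without the control, the target probes in HepG2 shared 11 of these miRNAs. miR-663b (0.39), miR-605 (0.16), miR-638 (0.12) and miR-649 (0.02) were slightly higher with p21, and miR-574-3p (-0.44), miR-589 (-0.50), miR-577 (-0.62), miR-663 (-0.75), miR-593 (-0.80), miR-582-3p (-0.83) and miR-643 (-1.28) lower. Hence 0 passed 2-fold upwards and 1 downwards, where 29% and 20% of 155 assays were, and the median was -0.50 beside 0.00. Detected with p21 and not STAT3 were 6 (5.41%, against 7.52%), led by miR-612 and miR-636, at least 10.7-fold and 5.79-fold higher with the STAT3 side at the limit. Detected with STAT3 and not p21 were 19 (17.1%, against 13.6%), led by miR-622, at least 11-fold higher with STAT3. On reference assays these 3 bounds were 6.23, 3.37 and 22.3.

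**Figure D5:**
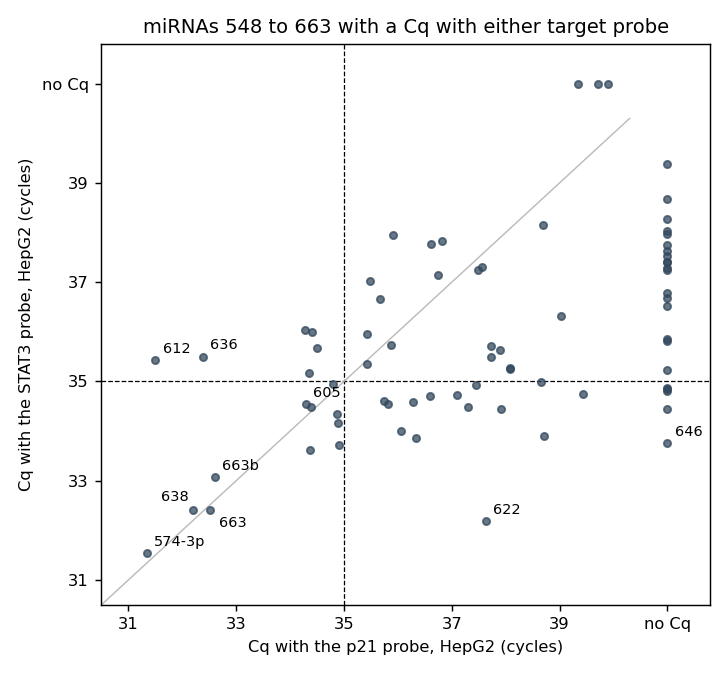
Cq with the STAT3 probe against Cq with the p21 probe in HepG2 (cycles) for the miRNAs from miR-548 to miR-663 with a Cq in either; dashed lines mark Cq 35, the grey line equal Cq, and wells without a Cq sit at the edges. miR-574-3p, miR-638, miR-663 and miR-663b lie near the diagonal, miR-612 and miR-636 pass the limit with p21 only and miR-622 with STAT3 only.

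In PC-3 the p21 probe brought 6 of these miRNAs under the limit and the control did not (5.41%, against 5.77% of all assays), and 2 were lost (1.8%, against 0.805%). The 6 were miR-638, miR-612, miR-595, miR-662, miR-571 and miR-632, and the lost ones miR-589 and miR-605. With the control at the limit and after centring, the bounds were 3.09-fold higher for miR-638 and 2.74-fold for miR-612. On reference assays these bounds were 1.23 and 1.09. The widest centred bound ran the other way: miR-589 was at least 5.64-fold lower with the p21 probe, or 6.66-fold on reference assays. Without centring the bounds were 1.46 (miR-638), 1.29 (miR-612) and 0.60 (miR-589) log2 units, so that of miR-589 was then under 2-fold. miR-663, the 1 detected with both probes, was 2.26 cycles higher before centring and 0.37 after, where 20% of 10 assays rose past 2-fold and 10% fell past it. Centring in PC-3 rests on 6 assays on panel 1 and 4 on panel 2, and on reference assays it rests on 3 per panel. miR-662, at 66.7% GC, was at 34.57 with the PC-3 p21 probe and between 35.66 and 37.72 in the remaining purifications.

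Between the lines, more of these miRNAs were detected in HepG2 than in PC-3, and miR-663 had nearly the same p21 Cq in both. With the p21 probe, 13 were detected in HepG2 only (11.7%, against 22.3% of all assays) and 3 in PC-3 only (2.7%, against 1.07%), namely miR-662, miR-595 and miR-571. Centred bounds put these 3 at least 7.63-fold, 10-fold and 5.45-fold higher in PC-3, or 3.22-fold, 4.23-fold and 8.79-fold on reference assays. Without centring the bounds were 0.43, 0.82 and 0.15 log2 units, all under 2-fold, so their size comes mostly from the centre. On the HepG2 side miR-574-3p was at least 2.23-fold higher, or 5.3-fold on reference assays. Of 4 detected in both, miR-612 was 2.21 cycles, miR-638 1.34 and miR-632 0.69 higher in HepG2, and miR-663 differed by -0.09. The panels themselves were 2.50 (panel 1) and 2.30 (panel 2) cycles higher in HepG2, and relative to that miR-663 was at -2.59, miR-632 at -1.61, miR-638 at -0.96 and miR-612 at -0.09. By the 2-fold rule 0 were higher in HepG2 and 2 lower, where 37.8% and 31.1% of 45 assays were, with a median of -1.28 beside 0.00. This direction rests on the centre: without centring the median was 1.02, and miR-632 and miR-638 turned with it. With the control probe, 6 were detected in HepG2 only (5.41%, against 15.4%) and miR-589 in PC-3 only (0.901%, against 0.805%). Of the 10 assays detected with the control probe in both lines, miR-663 was at -0.10 and miR-605 at -0.17 after centring, and 30% and 20% of the 10 passed 2-fold upwards and downwards.

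The miR-548 family was never detected, where 44.2% of all assays were detected in at least 1 purification. All but miR-548b-3p and miR-548c-3p are on panel 2. There 4.59%, 22.4% and 31.6% of all assays were detected in HepG2 with the control, p21 and STAT3 probes. In PC-3 it was 2.16% and 4.05% with the control and p21 probes. The 12 assays of the family gave 9 Cq values in 60 wells, all with HepG2 and between 35.91 (miR-548h, p21 probe) and 39.38 (miR-548l, STAT3 probe). Of all 745 assays, 293, 416 and 561 had a Cq of some size with those HepG2 probes. miR-548h was the only one with a Cq from all 3 HepG2 probes, at 38.48, 35.91 and 37.96 with the control, p21 and STAT3 probes. With the STAT3 probe miR-548b-3p was at 37.53, miR-548i at 38.28 and miR-548m at 37.28, and miR-548c-5p was at 36.82 with the p21 and 37.84 with the STAT3 probe. Assays of miR-548c-3p, miR-548o, miR-548d-5p, miR-548j, miR-548k and miR-548a-5p gave no Cq.

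Of 13 assays for miRNAs described outside primates, 6 were detected in HepG2 (miR-574-3p, miR-551b, miR-582-5p, miR-582-3p, miR-598 and miR-660) and 0 in PC-3, where 43.4% and 7.92% of all assays were, so neither count stands clear of the background. The arms of the miR-582 hairpin, which lies within the span of PDE4D, were read with the p21 probe at 34.50 (5p) and 34.37 (3p). With the STAT3 probe they were at 35.67 and 33.62, and with the control probe at 36.12 and 35.88. miR-615-3p, whose hairpin lies in the HOXC cluster, was at 35.28 with the STAT3 probe, where its 5p arm was at 36.32. The arms of each pair are on different panels, and the shift of the spike-in UniSp3 between HepG2 p21 and control was -2.28 cycles on panel 1 and 0.16 on panel 2, so no order of the arms is read from these values.

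The authors' deposited table of fold changes lists all 111, and many share 1 value: the commonest fold belongs to 60 of them for p21 and 48 for STAT3 in HepG2 and to 67 in PC-3. How wells without a Cq entered those folds is not stated, but miRNAs with no Cq in any purification share 1 fold per panel. With p21 in HepG2 it was 0.849 on panel 1 (miR-548c-3p) and 0.782 on panel 2 (miR-548a-5p). For these miRNAs the fold is thus a filled-in value and not a measurement. miR-564, with a Cq above 35 in all 5 purifications, carries the same panel 2 fold of 0.782. By the authors' deposited table, 5 of the 111 are at least 2-fold for p21 in HepG2, led by miR-612 at 8.85 and miR-574-3p at 7.22, and 3 in PC-3, with miR-638 at 4.16, miR-612 at 3.69 and miR-663 at 3.4. For STAT3 the authors' deposited table puts 4 of them at least 2-fold, with miR-574-3p at 10.4 and miR-622 at 9.92. The folds of miR-612, miR-622 and, in PC-3, miR-638 have no control Cq within the limit. With the control at 35 and centred on UniSp6, bounds in HepG2 were 3.15 (miR-612, p21) and 3.31 (miR-622, STAT3) log2 units. In PC-3 they were 2.06 (miR-638) and 1.88 (miR-612). These folds are thus of the size of bounds and do not measure both sides. Lower by at least 2-fold in the authors' deposited table are 9 of the 111 for STAT3, 0 for p21 in HepG2 and 1 in PC-3, beside 60, 25 and 2 of all 729 entries. Of those 9, miR-612 had a higher Cq with the control (39.74) than with STAT3 (35.43). miR-550a, miR-576-5p, miR-632, miR-636 and miR-650 had a Cq with STAT3 and none with the control. These low folds run against the Cq values. Only miR-605, miR-628-3p and miR-652 had a lower Cq with the control. All 729 listed entries give 94 (p21 in HepG2), 17 (p21 in PC-3) and 77 (STAT3) at least 2-fold higher.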

How the data were processed

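Exiqon SYBR Green RT-PCR panels were read for 5 purifications, each on 2 panels that hold different assays and are not replicates. The deposited Cq values are unnormalised, 1 well per assay, per the file headers; uncalled wells are marked undetermined. The authors' deposited fold ratios are 2 to the power of minus ΔΔCt against an unnamed housekeeping gene, per the file headers; no value is negative, so they were read as linear ratios despite columns titled log. For miRNAs detected on both sides, median log2 values of the deposited folds equalled those centred on UniSp6. They were 0.92 (p21) and 0.59 (STAT3) in HepG2 and 1.77 (p21) in PC-3. Neither probe sequences nor the cycler's threshold were stated. Detection meant Cq of at most 35; the size limit was 2-fold (1 log2 unit). Differences were centred per panel on the median over miRNA assays detected on both sides. Bounds set the undetected side to 35 and were computed for this block only. Reference assays were U6, SNORD38B, SNORD49A, miR-423-5p, miR-191 and miR-103. No test was possible with 1 purification per condition. The block and its lists were chosen with earlier results of these data known. Named with full values were miRNAs detected in both lines or in at least 3 purifications, detected GC-rich ones, and miR-612, miR-638, miR-663 and the miR-548 assays. The lists were the miR-548 family, miRNAs described outside primates, reported p21 regulators and a reported link to STAT3. miR-564, miR-622 and miR-636 were singled out after their values were seen. Calculations used Python 3.11.15, NumPy 2.4.6 and pandas 2.3.3. The centring and the 2-fold rule were run on simulated data with lower Cq values and no undetected wells. Bounds and values near the limit were not covered by it. Alternatives tried were other limits, centrings, GC limits and the deposited folds.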

Additional observations from a re-analysis of the deposited data

Results flagged for a closer look

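In 4 miRNAs detected in at least 1 of the control and p21 purifications, the p21 purification moved by at least 1 cycle, or from a Cq to none, in opposite directions in HepG2 and PC-3; with 1 purification per condition the difference was not tested. miR-662 changed by -2.06 cycles (control minus p21, so lower with p21) in HepG2 and by 2.16 in PC-3. miR-595 changed by -1.14 in HepG2 and by 1.74 in PC-3. miR-589 gave a Cq in HepG2 with the p21 probe (34.80) and not the control, and in PC-3 with the control (34.40) and not the p21 probe. miR-584 did likewise, at 34.35 in HepG2 and 37.65 in PC-3. These changes are as read, without centring. All 4 are on panel 1, whose centre favoured the p21 probe by 1.30 cycles in HepG2 and 1.89 in PC-3. The PC-3 changes of miR-662 and miR-595 lie close to that centre, so relative to the panel their opposite direction is not shown. Without the condition on detection 7 miRNAs met the rule; the other 3, miR-615-3p, miR-598 and miR-631, had no Cq under 35.29 in these 4 purifications.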

How the results depend on the processing

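The counts follow the Cq limit. At Cq 32 the detected miRNAs numbered 0, 2 and 1 in HepG2 (control, p21, STAT3) and 0 and 0 in PC-3 (control, p21), with 0 in both lines and 0 GC-rich in each. At Cq 37 they numbered 20, 32, 52, 10 and 18, with 19 in both lines and GC-rich counts of 5 (STAT3), 2 (PC-3 control) and 3 (PC-3 p21). With any Cq they numbered 33, 52, 72, 21 and 27, with 30 in both lines and GC-rich counts of 3, 5, 5, 5 and 5. The p21 probe alone gave 4 in both lines, and GC limits of 65% or 60% gave 2 in PC-3 with p21.

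The median differences follow the centre. Without centring, on reference assays, on U6, SNORD38B and SNORD49A, and on UniSp3, HepG2 p21 against control gave 1.22, -1.82, -1.25 and 2.28 (0.92 on UniSp6 and in the deposited folds, -0.71 with undetected at 35). STAT3 against control gave 0.82, -1.20, -1.21 and 1.46. PC-3 p21 gave 2.26 without centring, 1.77 on UniSp6 and in the deposited folds, and 1.87 on UniSp3. p21 against STAT3 gave -1.45 on reference assays. HepG2 against PC-3 control gave 0.87 without centring, 0.64 on reference assays and on the small RNAs, and -1.01 with undetected at 35. HepG2 against PC-3 p21 turned to 1.02 without centring and 0.68 on UniSp3, with -0.43 on the small RNAs and -0.49 on UniSp6.

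Counts at least 2-fold higher and lower moved with it. For HepG2 p21 (1 and 1) they were 2 and 0 without centring, on UniSp6 and in the deposited folds, 0 and 2 on reference assays or small RNAs, 3 and 0 on UniSp3, 3 lower at Cq 37, and 4 and 6 with undetected at 35. For STAT3 (1 and 1) they were 2 and 0 without centring, 0 and 4 on reference assays, 3 lower on small RNAs, 4 and 0 on UniSp3, 2 higher on UniSp6 and in the deposited folds, 2 and 3 at Cq 37 and with undetected at 35. For PC-3 p21 (0 and 0) 1 was higher without centring, on either UniSp RNA and in the deposited folds, 1 and 1 at Cq 37, and 2 and 3 with undetected at 35. For p21 against STAT3 (0 and 1) they were 7 lower on reference assays, 0 lower on UniSp6, 2 and 2 on UniSp3, 4 and 7 at Cq 37, and 2 and 8 with undetected at 35. For the control of HepG2 against PC-3 (0 and 0) 1 was higher without centring and on reference assays or small RNAs, 1 and 1 at Cq 37, and 5 lower with undetected at 35. For p21 between lines (0 and 2) they were 2 and 0 without centring, 0 lower on small RNAs, 1 lower on UniSp6, 1 and 0 on UniSp3, 2 and 7 at Cq 37, and 1 and 15 with undetected at 35. The cause was not tested.

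Among single values of at least 2-fold, those that turned sign were miR-574-3p for p21 (-0.63 on reference assays), miR-605 for p21 (0.03 without centring), miR-663 (0.96 on UniSp3) and miR-632 (0.69 without centring) between lines. Bounds of at least 2-fold that turned negative for p21 against control were miR-663b (-0.31 on reference assays, -0.11 on small RNAs), miR-636 (-0.10 on reference assays) and, on UniSp3, miR-551b (-1.69), miR-595 (-1.80) and miR-628-3p (-2.25). On UniSp3, the bounds of miR-551b (-0.43) and miR-596 (-0.59) turned negative for p21 against STAT3, and those of miR-662 (-0.63) and miR-595 (-0.23) between lines. A negative bound shows no difference and is not a reversal of direction. Over all settings of single miRNAs, 58 of 332 values changed sign, bounds included: the 14 above, and 44 whose value as reported was under 2-fold. Among the 44 were miR-663 for p21 (-0.63, and 2.95 on UniSp3), miR-663 for STAT3 (0.29, and -1.32 on reference assays) and miR-638 between lines (-0.96, and 1.34 without centring). No paired analysis was possible because each condition has 1 purification and the panels hold different assays.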
